A study of Mus musculus with 10 samples.

Results

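The genes of the lysosome and of its proton pump, the vacuolar H+-ATPase (V-ATPase), were followed in interscapular brown adipose tissue (iBAT) of mice without the receptor tyrosine kinase AXL. The members were a list of 47 genes named by symbol, out of 41249 gene identifiers in the count tables: 18 V-ATPase subunits and accessory proteins, and 29 other genes for lysosomal proteases, glycosidases, lipid-handling proteins, membrane proteins and the TFEB family of transcription factors. Of the 47, 37 were put in a broadly expressed class, and 10 in a macrophage-linked class, whose genes are often used as macrophage or osteoclast products (Atp6v0d2, Ctsb, Ctsd, Ctsh, Ctsk, Ctsl, Ctss, Ctsz, Lipa and Grn). The RNA came from whole iBAT of 5 Axl KO and 5 wild-type (WT) mice, all kept on a high-fat diet (HFD), for 24 weeks from an age of 6 to 8 weeks according to the labels, and, per the study's methods, male littermates. The Axl KO is constitutive and in the whole body, from a knockout-first cassette carried by targeted embryonic stem cell clones, so that adipocytes, macrophages and every other cell of the depot carried the disrupted gene. Total counts lay between 5431014 and 8214841 in Axl KO and between 5952427 and 9580215 in WT mice.

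Lysosomes break down proteins, glycans and lipids that reach them by endocytosis and autophagy, and their hydrolases work at the low pH that the V-ATPase sets up by pumping protons into the lumen. The pump has a membrane-bound V0 sector, through which the protons pass, and a cytosolic V1 sector, which hydrolyses ATP. TFEB, TFE3 and MITF bind the E-box CACGTG, found with flanking bases as the CLEAR element in promoters of many lysosomal genes. In adipose tissue, resident macrophages are rich in lysosomes and clear lipid and cell debris, and adipocytes use the same machinery for autophagy.

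Axl itself served as the check of the genotypes. In normalized counts per 1000000 counts (CPM) it averaged 43.1 ± 5.86 in the WT group against 1.57 ± 0.646 in the Axl KO group (SD, n = 5 each). The log2 fold change of Axl KO over WT was −4.77 (standard error, SE, 0.20), with an adjusted p of 1.10e-07 in edgeR. Here and below, the p of a fold change is from edgeR's quasi-likelihood test, and an adjusted p was corrected over all tested genes by the Benjamini-Hochberg method. Axl was the only gene of the 13739 tested, those with a mean above 1 CPM, with an adjusted p under 0.05, which is 0.00728% of them.

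None of the members passed that threshold. Of the 47, 46 were tested, all except Atp6v0d2, and their lowest adjusted p was 0.571 (edgeR). At an unadjusted p under 0.05, 10 of the 46 (21.7%) had a higher level in Axl KO mice, against 4.54% of all tested genes, and 0 had a lower level, against 3.86%. The log2 fold change was above 0 for 35 of the 46 (76.1%) and for 49.8% of the transcriptome tested. Counts given below for parts of the list and for other lists, over all 10 mice in this edgeR fit without covariates, stand beside the same 4.54%, 3.86% and 49.8%. Over the members the median log2 fold change was 0.10, a difference of 7.47%, where the whole tested transcriptome had −0.00059. DESeq2 also called 0 members. At an unadjusted p under 0.05 it found 9 of the 46, all with a higher level, beside 952 of the 13739 tested genes in either direction. These counts rested on single mice, since without Axl KO replicate 5 there were 4 members at an unadjusted p under 0.05, without Axl KO replicate 1 there were 5, and without Axl KO replicate 3 there were 21. Without both replicates 1 and 5, the Axl KO mice with the most members above their 10-mouse median, there was 1, and the median log2 fold change of the members was 0.036. Leaving out this pair was chosen after seeing the data. For these smaller sets of mice the shares of all tested genes are not given here, so their counts cannot be set beside the 4.54% above.

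**Figure D1:**
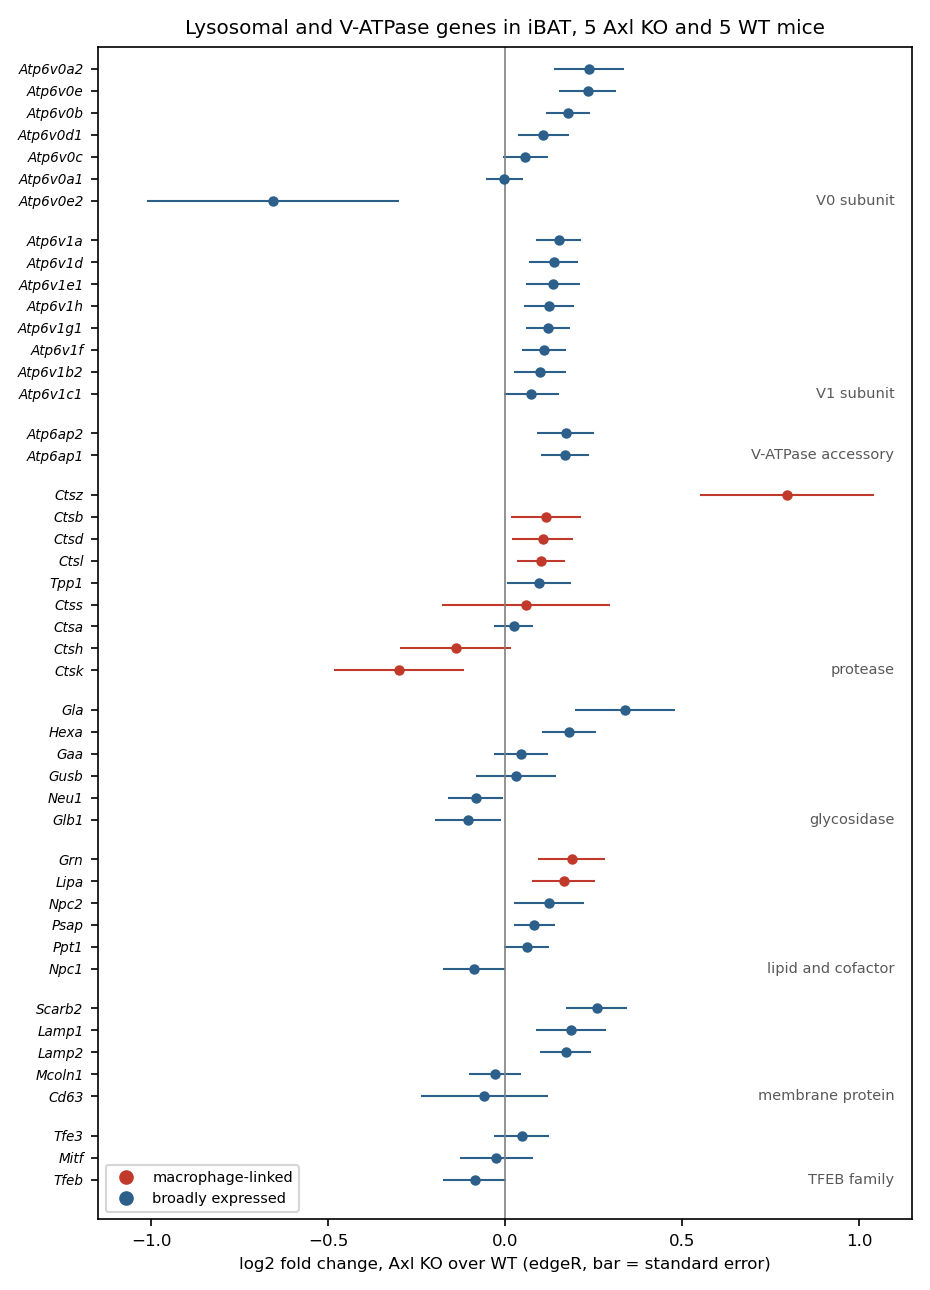
Log2 fold change of the 46 tested genes between Axl KO and WT mice (horizontal axis, 5 mice each), grouped by role, with the standard error derived from edgeR's test as the bar and the class as the colour. 35 of the 46 points lie to the right of 0, Ctsz lies farthest to the right at 0.80, and no gene passed the adjusted threshold.

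Promoters are shown for a selection of members, most of them chosen for carrying the letters CACGTG. All had a start-site window among the RefSeq sequences used here (38 of the 47 members, build GRCm38.p6). Printed are 250 bases before and 20 bases after the annotated start, 5′ to 3′ on the gene's own strand, with each CACGTG in capitals. Atp6v0e, Atp6v0b, Gla, Atp6v1a and Ctsz were among the 10 members with the smallest p. Of those 10, Scarb2, Atp6ap1, Lamp2 and Hexa had windows without CACGTG and are not printed, and Atp6v0a2 had no window. Lamp1 carried 4 matches in the printed stretch, and Mcoln1 has 2 matches and an almost equal level in both genotypes. Ctsz, the member with the largest log2 fold change, has no match.
Atp6v0e, chr17:26676146-26676415, forward strand: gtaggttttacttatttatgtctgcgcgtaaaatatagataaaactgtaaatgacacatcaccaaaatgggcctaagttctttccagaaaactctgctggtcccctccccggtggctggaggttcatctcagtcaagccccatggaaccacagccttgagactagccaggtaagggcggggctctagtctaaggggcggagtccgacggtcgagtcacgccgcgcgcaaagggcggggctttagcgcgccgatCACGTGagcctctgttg
Atp6v0b, chr4:117887310-117887579, reverse strand: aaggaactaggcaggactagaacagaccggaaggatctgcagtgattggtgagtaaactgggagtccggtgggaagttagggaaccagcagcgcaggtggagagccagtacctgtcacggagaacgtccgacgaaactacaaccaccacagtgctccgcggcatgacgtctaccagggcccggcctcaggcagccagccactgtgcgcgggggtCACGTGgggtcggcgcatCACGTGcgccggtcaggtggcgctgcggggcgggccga
Gla, chrX:134600986-134601255, reverse strand: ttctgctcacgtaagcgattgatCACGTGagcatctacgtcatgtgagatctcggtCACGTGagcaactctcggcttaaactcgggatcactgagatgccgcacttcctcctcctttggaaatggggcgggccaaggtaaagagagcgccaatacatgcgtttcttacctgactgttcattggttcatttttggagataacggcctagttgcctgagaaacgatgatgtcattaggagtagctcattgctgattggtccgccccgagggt
Atp6v1a, chr16:44139240-44139509, reverse strand: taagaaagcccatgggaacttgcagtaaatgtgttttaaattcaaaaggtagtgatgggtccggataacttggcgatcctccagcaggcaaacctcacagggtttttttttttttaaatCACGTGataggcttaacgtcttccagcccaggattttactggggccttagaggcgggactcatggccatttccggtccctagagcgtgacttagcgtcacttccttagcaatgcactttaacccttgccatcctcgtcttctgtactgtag
Lamp1, chr8:13158911-13159180, forward strand: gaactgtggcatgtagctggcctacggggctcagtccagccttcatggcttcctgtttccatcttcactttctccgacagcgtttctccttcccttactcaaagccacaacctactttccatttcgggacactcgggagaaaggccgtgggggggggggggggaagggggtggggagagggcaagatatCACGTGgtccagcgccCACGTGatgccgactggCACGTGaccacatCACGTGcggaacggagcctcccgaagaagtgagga
Mcoln1, chr8:3500269-3500538, forward strand: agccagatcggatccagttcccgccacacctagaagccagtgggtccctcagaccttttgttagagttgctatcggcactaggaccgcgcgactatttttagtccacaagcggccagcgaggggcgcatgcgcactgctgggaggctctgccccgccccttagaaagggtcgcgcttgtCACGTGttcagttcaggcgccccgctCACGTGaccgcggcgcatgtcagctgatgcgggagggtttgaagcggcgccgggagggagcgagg
Ctsz, chr2:174439020-174439289, reverse strand: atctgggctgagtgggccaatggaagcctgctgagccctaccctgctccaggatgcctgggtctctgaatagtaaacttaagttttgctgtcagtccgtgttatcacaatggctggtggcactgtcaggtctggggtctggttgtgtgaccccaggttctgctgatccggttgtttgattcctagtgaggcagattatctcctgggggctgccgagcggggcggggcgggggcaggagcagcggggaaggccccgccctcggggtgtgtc

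The letters CACGTG, which read the same on both strands, occurred in 12 of the 38 member windows (31.6%), reaching from 250 bases before to 50 bases after the start. They occurred in 11.8% of the windows of 9855 tested genes and in 8.09% of those of all 27025 genes with a window. The longer TCACGTGA, which holds CACGTG within it and is also its own reverse complement, occurred in 7 of the 38 (18.4%), against 2.2% of the tested genes and 1.12% of all genes. Atp6v0e, Gla, Atp6v1a and Mcoln1 carried the longer form. It began 131 bases before the start in Atp6v1a if counted at its CACGTG core, and 227 and 194 bases before it in Gla. In Atp6v0e the core began at base 4 after the start. The 12 members with CACGTG had a median log2 fold change of 0.11, and the 26 without it one of 0.089. Their ranges were −0.10 to 0.34 and −0.66 to 0.80, with 10 of 12 and 19 of 26 above 0, and 4 of 12 and 5 of 26 had a positive log2 fold change at an unadjusted p under 0.05. These letters in a window are a description of the sequence, and binding was not measured.

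Of the V-ATPase genes, 17 of 18 were tested. Of these, 15 (88.2%) had a log2 fold change above 0, beside 49.8% of all tested genes. At an unadjusted p under 0.05, 5 (29.4%) had a higher level, beside 4.54%. The median log2 fold change of the 17 was 0.12. Summed over the pump's genes, the level averaged 1221 ± 41.4 CPM in WT and 1348 ± 100.2 CPM in Axl KO mice (SD, n = 5 each). By mouse the sum was 1401, 1302, 1201, 1372 and 1462 CPM in Axl KO replicates 1 to 5, and 1231, 1257, 1165, 1260 and 1193 CPM in WT replicates 1 to 5. Of the Axl KO mice 4 lay above every WT mouse, and replicate 3 lay within the WT range.

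Among the V0 genes, 3 of 7 tested had an unadjusted p under 0.05, all with a positive log2 fold change. Atp6v0e (ENSMUSG00000015575), which encodes the small e subunit, measured 83.0, 76.4, 61.1, 68.6 and 81.1 CPM in Axl KO and 61.2, 63.1, 60.9, 62.8 and 66.4 CPM in WT mice. Again 4 Axl KO mice were above every WT mouse, and replicate 3 was within the WT range. It had a log2 fold change of 0.23 (SE 0.080, adjusted p = 0.571, edgeR). Atp6v0b (ENSMUSG00000033379), a subunit of the rotating proteolipid ring, measured 89.6, 83.0, 72.5, 86.3 and 84.9 CPM in Axl KO and 75.1, 75.4, 74.0, 74.6 and 68.8 CPM in WT mice. Replicate 3 was again the one Axl KO mouse not above the WT group, at a log2 fold change of 0.18 (SE 0.063). Atp6v0a2, one of the alternative a subunits, which line the proton path and help to place the pump in its membrane, measured 164, 141, 126, 156 and 192 CPM in Axl KO and 134, 133, 118, 134 and 142 CPM in WT mice. The groups overlapped in 2 Axl KO mice, and the log2 fold change came to 0.24 (SE 0.099), or 0.15 without Axl KO replicate 5.

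The partners of these subunits had other values. Atp6v0a1, the other a subunit in the list, averaged 51.6 ± 1.44 CPM in WT and 51.5 ± 2.03 CPM in Axl KO mice (SD, n = 5 each), a log2 fold change of −0.0018 (SE 0.052). Per kilobase of exon, Atp6v0a2 made up 70.2 to 78.1% (median 74.7%) of the a1 and a2 signal in Axl KO and 70.0 to 72.4% (median 71.6%) in WT mice, so a2 was the more abundant form in each of the 10 depots. Atp6v0c, the main proteolipid, had a log2 fold change of 0.057. Atp6v0d1, the broadly expressed d subunit that couples the stalk to the ring, measured 51.5, 44.8, 43.7, 49.8 and 54.8 CPM in Axl KO and 47.4, 46.6, 41.2, 45.9 and 45.6 CPM in WT mice, with 3 Axl KO mice above every WT mouse and a log2 fold change of 0.11 (SE 0.073). Atp6v0e2, the lesser e subunit gene, stood apart with a log2 fold change of −0.66 (SE 0.36, unadjusted p = 0.0899 in edgeR's quasi-likelihood test), at only 0.728 to 2.68 CPM in Axl KO and 2.01 to 3.78 CPM in WT mice.

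Atp6v0d2, the d subunit known from osteoclasts and macrophages, was the one member below the filter. It had 2, 1, 7, 1 and 4 counts in Axl KO and 1, 0, 0, 0 and 4 counts in WT replicates 1 to 5, and a count of 0 allows up to 3 counts, or 0.317 to 0.516 CPM in the 3 WT mice concerned. Per kilobase of exon it made up 0.193 to 1.22% of the d1 and d2 signal in Axl KO and 0 to 0.724% in WT mice. Nearly all d subunit RNA in these depots was therefore Atp6v0d1, and a difference in Atp6v0d2 was not detectable at this depth.

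All 8 V1 genes had a log2 fold change above 0, within a narrow range from 0.074 for Atp6v1c1, a stalk subunit, to 0.15 for Atp6v1a. Only Atp6v1a (ENSMUSG00000052459), the catalytic subunit that hydrolyses ATP, had an unadjusted p under 0.05. It measured 164, 158, 148, 164 and 169 CPM in Axl KO and 144, 150, 131, 160 and 138 CPM in WT mice. The groups overlapped, with 3 Axl KO mice above every WT mouse, at a log2 fold change of 0.15 (SE 0.064, adjusted p = 0.571, edgeR). Atp6v1b2, the B subunit used in most tissues, measured 133, 112, 107, 134 and 133 CPM in Axl KO and 107, 117, 119, 120 and 116 CPM in WT mice, so that 3 Axl KO mice were above every WT mouse and the rest at the lower end of the WT range, with a log2 fold change of 0.098 (SE 0.074). The stalk and rotor genes Atp6v1d, Atp6v1e1, Atp6v1f, Atp6v1g1 and Atp6v1h had log2 fold changes of 0.11 to 0.14. Of the accessory proteins, Atp6ap1, which assists assembly of V0, measured 98.6, 94.5, 79.9, 87.2 and 97.9 CPM in Axl KO and 77.1, 87.5, 82.0, 78.9 and 81.2 CPM in WT mice. Here 3 Axl KO mice were above every WT mouse, and the log2 fold change came to 0.17 (SE 0.067). Atp6ap2, the prorenin receptor, also had 0.17 (SE 0.081), at an unadjusted p of 0.0540 in edgeR's quasi-likelihood test.

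**Figure D2:**
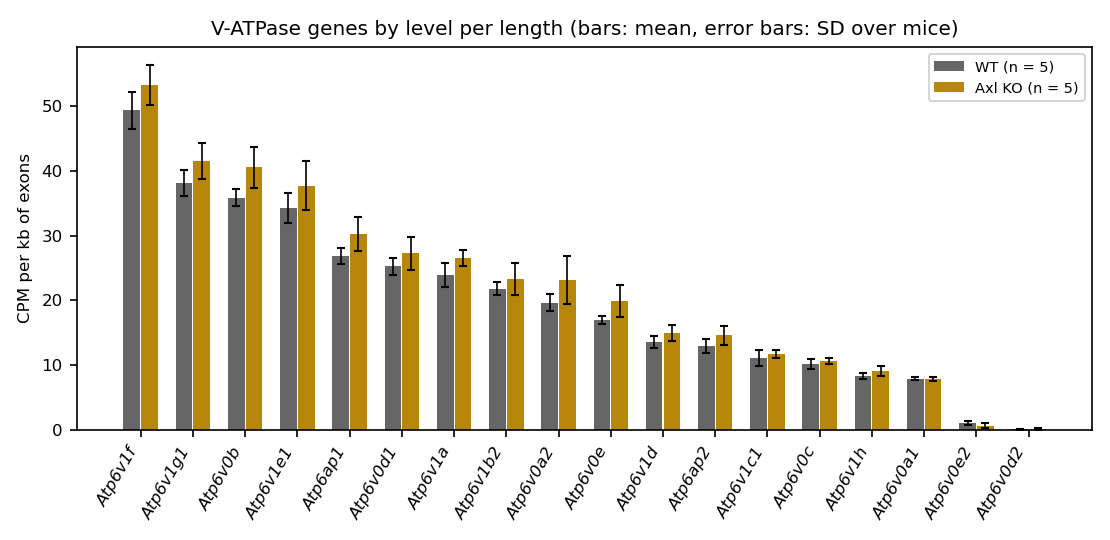
Level per length of the 18 V-ATPase genes (vertical axis, CPM per kilobase of exon; bars are means and error bars SD over 5 mice per genotype), ordered by the WT level. Atp6v1f leads at 49.4 in WT and 53.3 in Axl KO mice, and Atp6v0e2 and Atp6v0d2 are at or near 0 beside the other 16 genes.

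Levels per kilobase of exon spread widely over the pump. In WT mice Atp6v1f, a small subunit of the rotor, was highest at 49.4 ± 2.82 CPM per kilobase (SD, n = 5), followed by Atp6v1g1 at 38.2 ± 2.02, Atp6v0b at 35.9 ± 1.32 and Atp6v1e1 at 34.3 ± 2.33 CPM per kilobase. The values of Atp6v1g1, Atp6v0b and Atp6v1e1 did not differ from one another beyond their spread, while Atp6v1f lay above them in every WT mouse. Atp6v1h at 8.34 ± 0.468 and Atp6v0a1 at 7.87 ± 0.220 CPM per kilobase closed the order of the clearly expressed subunits and were likewise within each other's spread.

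The proteases held both the largest difference and some of the most abundant transcripts. Of 9 protease genes 7 had a log2 fold change above 0 and 1, Ctsz, an unadjusted p under 0.05. Ctsz (ENSMUSG00000016256; chromosome 2, 174427493 to 174439039, reverse strand) encodes cathepsin Z, a carboxypeptidase abundant in myeloid cells. It measured 442, 284, 237, 357 and 707 CPM in Axl KO replicates 1 to 5 and 183, 259, 202, 264 and 257 CPM in WT replicates 1 to 5. Of the Axl KO mice 4 were above every WT mouse, and replicate 5 was highest by a wide margin. The means were 405 ± 185 CPM and 233 ± 37.7 CPM (SD, n = 5 each), and the log2 fold change came to 0.80 (SE 0.25, adjusted p = 0.571, edgeR). Without Axl KO replicate 5 it was 0.50, and without replicates 1 and 5 it was 0.33. Nelfcd overlaps Ctsz on the opposite strand at 35.4 CPM, 11.1% of the Ctsz level, with a log2 fold change of 0.093; the strand setting of the counting is not given in the sources used here, so reads in the shared stretch cannot be assigned with certainty.

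Ctsd, the aspartic protease cathepsin D, measured 1653, 1401, 1303, 1471 and 1589 CPM in Axl KO and 1460, 1430, 1144, 1418 and 1439 CPM in WT mice. The groups overlapped, with 3 Axl KO mice above every WT mouse, at a log2 fold change of 0.11 (SE 0.086), or 0.046 without WT replicate 3. A gene model on the same strand, Gm49369, shares its locus and was counted at 756 CPM, 52.8% of the Ctsd level, so the Ctsd value is uncertain. The cysteine proteases Ctsb and Ctsl had log2 fold changes of 0.12 and 0.10, and the serine proteases Ctsa, the protective protein of β-galactosidase, and Tpp1, a tripeptidyl peptidase, had 0.024 and 0.096. On the opposite strand, Pltp overlaps Ctsa at 63.8 CPM, 99.3% of the Ctsa level, Neurl2 overlaps it at 3.39%, and Fdft1 overlaps Ctsb at 6.60% of the Ctsb level, so that the Ctsa value in particular is uncertain. Ctsk, the collagen-degrading cathepsin K, measured 3.09, 3.16, 3.73, 3.06 and 2.26 CPM in Axl KO and 3.00, 3.70, 3.47, 4.13 and 4.78 CPM in WT mice. It had a log2 fold change of −0.30 (SE 0.18), with overlapping groups. Ctsh, an aminopeptidase, had −0.14 (SE 0.16).

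Ctss, cathepsin S of antigen-presenting cells, measured 9.72, 7.36, 13.6, 5.97 and 10.2 CPM in Axl KO and 8.87, 7.62, 8.44, 6.36 and 13.7 CPM in WT mice. Both genotypes covered the same range, and the log2 fold change came to 0.060 (SE 0.24).

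**Figure D3:**
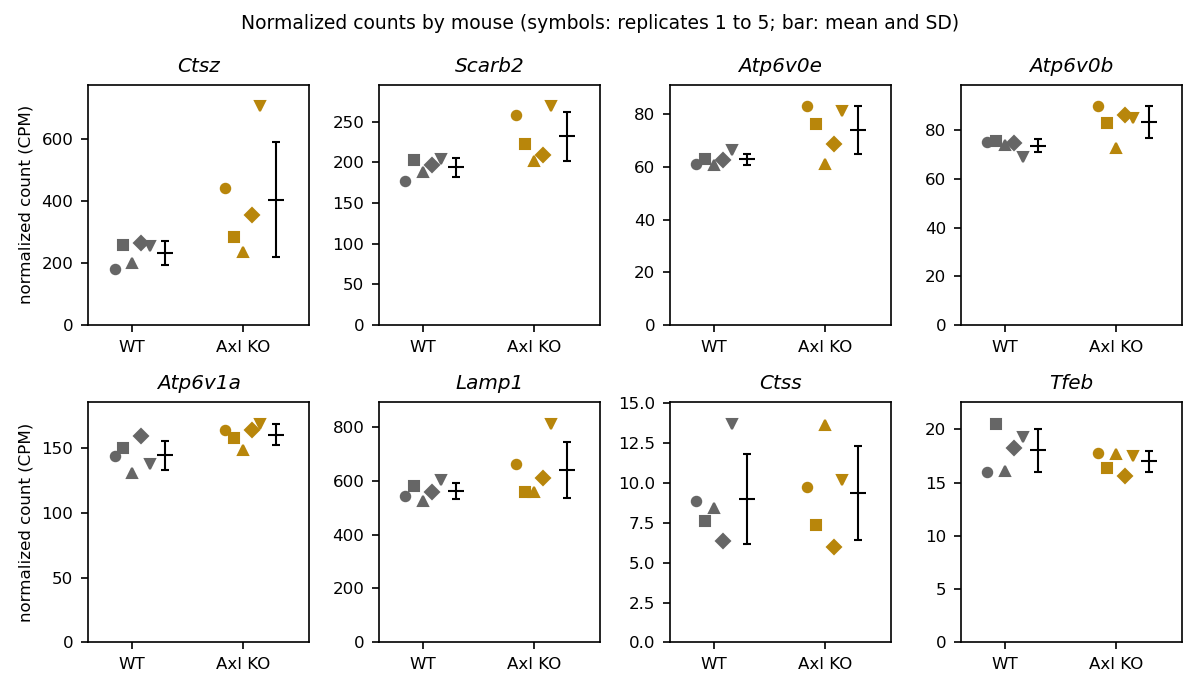
Normalized count in CPM of 8 members in each mouse (vertical axes start at 0; symbols are replicates 1 to 5, the bar beside them the mean and SD). Axl KO replicate 5, the downward triangle, is highest for Ctsz at 707, Scarb2 at 269 and Lamp1 at 811 CPM, and the genotypes overlap for Ctss and Tfeb.

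Of the 6 glycosidases 4 had a log2 fold change above 0 and 2 an unadjusted p under 0.05. Gla (ENSMUSG00000031266), α-galactosidase A, which is deficient in Fabry disease, was the only member without overlap between the groups, 1 of 46 in this direction and 0 of 46 in the other, where 0.735% and 0.619% of all tested genes had none. It measured 5.09, 6.01, 5.60, 5.68 and 6.59 CPM in Axl KO and 5.05, 4.23, 4.97, 4.99 and 3.65 CPM in WT mice. The lowest Axl KO mouse had 33 counts (5.09 CPM) and the highest WT mouse 37 counts (5.05 CPM). In that Axl KO mouse 3 counts are worth 0.463 CPM, so the separation lies within counting error. The groups overlapped when library totals replaced the normalization factors. The log2 fold change came to 0.34 (SE 0.14, adjusted p = 0.571, edgeR). Hexa, the α chain of hexosaminidase, measured 68.8, 62.4, 53.4, 57.1 and 65.3 CPM in Axl KO and 52.0, 51.5, 57.1, 50.9 and 58.8 CPM in WT mice. It had a log2 fold change of 0.18 (SE 0.077), with 3 Axl KO mice above every WT mouse. The acid α-glucosidase Gaa and the β-glucuronidase Gusb had 0.045 and 0.031, and the sialidase Neu1 and the β-galactosidase Glb1 had −0.083 and −0.10. Tmppe overlaps Glb1 on the same strand, at 34.5% of its level.

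For lipid handling, 5 of 6 genes had a log2 fold change above 0 and 0 had an unadjusted p under 0.05. Lipa, the acid lipase that frees fatty acids and cholesterol inside lysosomes, measured 200, 207, 182, 208 and 243 CPM in Axl KO and 174, 201, 159, 188 and 205 CPM in WT mice. The groups overlapped, and the log2 fold change came to 0.17 (SE 0.089), or 0.10 without Axl KO replicate 5. Grn, the precursor of progranulin, had 0.19 (SE 0.094), and the cholesterol exporters Npc2 and Npc1, soluble and membrane-bound, had 0.13 and −0.088. Psap, which is cleaved into the saposins that help glycolipid breakdown, had 0.082, and the palmitoyl thioesterase Ppt1 had 0.061. Opposite-strand genes overlap Npc1 (Rmc1 at 42.4 CPM, 46.2% of the Npc1 level) and Ppt1 (Cap1 at 68.7 CPM, 148% of the Ppt1 level), so both values are uncertain.

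The membrane proteins gave the second smallest p among the members. Scarb2 (ENSMUSG00000029426), known as LIMP-2, the receptor that carries β-glucocerebrosidase to lysosomes, measured 258, 223, 201, 209 and 269 CPM in Axl KO and 177, 203, 189, 196 and 204 CPM in WT mice. Of the Axl KO mice 4 were above every WT mouse. The log2 fold change came to 0.26 (SE 0.086, adjusted p = 0.571, edgeR). Lamp2, a major glycoprotein of the lysosomal membrane with a part in autophagy, measured 212, 195, 165, 185 and 201 CPM in Axl KO and 157, 167, 181, 180 and 165 CPM in WT mice. Here too 4 Axl KO mice were above every WT mouse, at a log2 fold change of 0.17 (SE 0.073). Its relative Lamp1 measured 661, 556, 558, 609 and 811 CPM in Axl KO and 544, 580, 525, 556 and 602 CPM in WT mice. With 3 Axl KO mice above every WT mouse, Lamp1 had a log2 fold change of 0.19 (SE 0.098), which was 0.085 without Axl KO replicate 5. Grtp1 overlaps Lamp1 on the opposite strand, at 2.78% of its level. The calcium channel Mcoln1 and the tetraspanin Cd63 had −0.028 and −0.059.

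The transcription factors were at low and similar levels in both genotypes. Tfeb measured 17.7, 16.4, 17.7, 15.6 and 17.5 CPM in Axl KO and 16.0, 20.5, 16.1, 18.2 and 19.3 CPM in WT mice, a log2 fold change of −0.086 (SE 0.089). Tfe3 measured 30.9, 35.0, 33.9, 28.2 and 31.2 CPM in Axl KO and 29.9, 32.4, 28.0, 29.7 and 34.2 CPM in WT mice, a log2 fold change of 0.047 (SE 0.077). Mitf measured 12.5, 13.4, 13.6, 12.7 and 15.1 CPM in Axl KO and 14.3, 11.2, 15.8, 13.9 and 13.1 CPM in WT mice, a log2 fold change of −0.025 (SE 0.10). The groups overlapped for each of the 3 genes. Their RNA level says nothing of where the proteins were in the cell, by which this family is mainly controlled.

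Per kilobase of exon, the most abundant member in WT mice was Psap at 643 ± 24.4, followed by Ctsd at 586 ± 56.1, Lamp1 at 210 ± 11.2, Ctsb at 189 ± 15.7 and Ctsz at 162 ± 26.2 CPM per kilobase (SD, n = 5). Psap and Ctsd lay within each other's spread, as did Ctsb and Ctsz. In Axl KO mice Ctsz, at 281 ± 129 CPM per kilobase, stood after Psap and Ctsd, and its spread reached over Lamp1 at 239 ± 39.4. The other 42 members had means of at most 55.2 CPM per kilobase in both genotypes. All 47 members together took 0.788 ± 0.0259% of the counts in WT and 0.866 ± 0.0688% in Axl KO mice (SD, n = 5 each).

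Many members were high or low in the same mice. Of the 46 tested members, 35, 26, 14, 27 and 40 were above their median over the 10 mice in Axl KO replicates 1 to 5, and 16, 18, 11, 19 and 24 in WT replicates 1 to 5. Axl KO replicate 5, which had the lowest total count, held the highest value of 17 members and replicate 1 that of 13, while WT replicate 3 held the lowest of 15. By this count Axl KO replicate 3 lay among the WT mice, and the other 4 Axl KO mice above them.

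The broadly expressed and the macrophage-linked members had nearly equal medians. The 37 broadly expressed members had a median log2 fold change of 0.098, with 28 above 0. At an unadjusted p under 0.05, 9 (24.3%) had a higher level, beside 4.54% of all tested genes. The 9 tested macrophage-linked members had a median of 0.11, with 7 above 0 and 1 (11.1%), Ctsz, at an unadjusted p under 0.05. The division matters to the second value, since with only Atp6v0d2, Ctsk and Ctss as macrophage-linked the median of the 2 tested genes was −0.12. Most of the genes in this class are made by many cell types, and in whole tissue fewer cells of a type and less RNA per cell cannot be told apart.

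Markers of macrophages had overlapping summed levels in both genotypes. Of the 14 markers 13 were tested, 7 had a log2 fold change above 0, 1 (Trem2) had an unadjusted p under 0.05, and the median log2 fold change was 0.018. Trem2, a lipid-sensing receptor of macrophages, had a log2 fold change of 1.05 (SE 0.39), at 0.601 to 2.33 CPM in Axl KO and 0.423 to 1.13 CPM in WT mice. It had only 8, 4, 20, 9 and 7 counts in Axl KO and 6, 4, 4, 3 and 9 counts in WT mice. With means of 1.36 CPM in Axl KO and 0.671 CPM in WT mice, it passed the filter of 1 CPM only through the Axl KO group. No conclusion is drawn from its difference. The summed level of the markers was 164 to 290 CPM in Axl KO and 182 to 274 CPM in WT mice. Defining markers were present at low levels, with Adgre1, the F4/80 antigen, at 8.01 to 15.0 CPM in Axl KO and 9.48 to 15.0 CPM in WT mice, and Csf1r, the receptor for macrophage colony-stimulating factor, at 22.9 to 38.5 and 25.4 to 40.3 CPM. None of the 14 was at 0 in a whole group.

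Across the 10 mice, each tested member was set against the mean log2 level of the 13 macrophage markers, 46 correlations in all, each with a permutation test of 100000 resamples. Of these, 3 members (Ctsh, Ctss and Ppt1) had a positive r at an unadjusted p under 0.05, 6.52% beside 3.84% of all tested genes. With the p adjusted over all 13739 tested genes 0 members passed 0.05, as did 0% of the genes, and adjusted over the 46 members alone Ctss passed. Ctss was highest, with Pearson's r = 0.930 (permutation p = 0.00027, adjusted over all genes 0.258) and Spearman's rho = 0.842 (permutation p = 0.00399, adjusted 0.698). Its r was 0.835 without Axl KO replicate 3 and WT replicate 5, the mice farthest from the median of the markers, and 0.930 with the genotype means taken out. Ctsh was next with r = 0.760 (permutation p = 0.0101, adjusted 0.559) and rho = 0.709 (permutation p = 0.0273, adjusted 0.777), and r = 0.613 without that pair of mice. For Ctsz, Ctsb and Ctsd r was −0.146, −0.395 and −0.102, and without that pair of mice it was 0.060, 0.214 and 0.130, so its sign rests on them. The median r was −0.0065 for the 9 macrophage-linked members, −0.29 for the 17 V-ATPase members and −0.0032 for all tested genes. Without that pair of mice the medians were 0.21 for macrophage-linked and 0.13 for V-ATPase members.

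Markers of brown adipocytes, muscle and fibroblasts were less even between the genotypes. The 10 brown adipocyte markers were all tested, and 9 had a log2 fold change above 0. At an unadjusted p under 0.05, 4 (40%) had a higher level, beside 4.54% of all tested genes. Their summed level was 15502 to 19990 CPM in Axl KO and 14320 to 16531 CPM in WT mice, and none was at 0. Among them Cox8b, a brown-fat subunit of cytochrome c oxidase, and Dio2, the deiodinase that activates thyroid hormone, did not overlap between the genotypes, with log2 fold changes of 0.24 and 0.89. Of all tested genes 0.735% were higher without overlap. The markers were uneven among themselves. Elovl3, Ucp1 and Fabp4 had log2 fold changes of 1.67, 0.43 and 0.15. Those of Prdm16, Adipoq, Ppargc1a and Cidea were 0.044, 0.043, 0.023 and 0.015, and that of Plin1 was −0.10. Skeletal muscle markers summed to 6.16 to 3321 CPM in Axl KO and 803 to 3965 CPM in WT mice, with 0 of 10 above a log2 fold change of 0. Fibroblast markers summed to 411 to 693 CPM in Axl KO and 602 to 811 CPM in WT mice, with 0 of 5 above 0 and 2 at an unadjusted p under 0.05. With the muscle markers as a covariate, 6 members had a positive log2 fold change at an unadjusted p under 0.05. The share of all tested genes in that fit is not given here, so this count cannot be set beside the 4.54%. Apart from this fit with the muscle markers, the part of these cell types in the members' values was not tested.

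The same correlations were computed with the mean log2 level of the brown adipocyte markers, a comparison chosen after seeing the data. Of the 46 members 20 (43.5%) had a positive r at an unadjusted permutation p under 0.05, beside 9.82% of all tested genes, and 0 had a negative one. With the p adjusted over all tested genes 1 member, Atp6v1a, passed 0.05, beside 0.247% of the genes. Adjusted over the members alone, which were chosen with results of these data known, 16 passed, namely 8 of 17 V-ATPase members and 8 of 29 others. The members share their libraries and are not independent of one another. The median r was 0.60 over the members, 0.72 over V-ATPase members and 0.77 over macrophage-linked members, beside −0.026 over all tested genes. Atp6v1a was highest with r = 0.964 (permutation p = 1e-05, the smallest these resamples can give, adjusted over all genes 0.0275) and rho = 0.939 (permutation p = 0.00024, adjusted 0.0749). Ctsz had r = 0.869 (permutation p = 0.00065, adjusted 0.0692) and rho = 0.927 (permutation p = 0.00033, adjusted 0.0785). Without WT replicate 3 and Axl KO replicate 5, the mice farthest from the marker median, r was 0.934 for Atp6v1a and 0.839 for Ctsz. Ctsk and Ctsh lay at the other end, with r = −0.618 (permutation p = 0.0559, adjusted 0.305) and −0.506 (permutation p = 0.133, adjusted 0.436).

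The count adjusted over the members alone was smaller within the genotypes and without Axl KO replicate 5. All adjusted p-values and counts in this paragraph are over the 46 members alone. With the genotype means taken out, 1 of 46 members, Atp6v1a, passed 0.05 (r = 0.933, adjusted p = 0.0133, permutation within genotypes). For Ctsz r was then 0.763 (adjusted p = 0.0689). Without Axl KO replicate 5, 1 member passed, and with Spearman's rho 2 did. With the 7 markers other than Ucp1, Dio2 and Elovl3, 0 members passed.

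**Figure D4:**
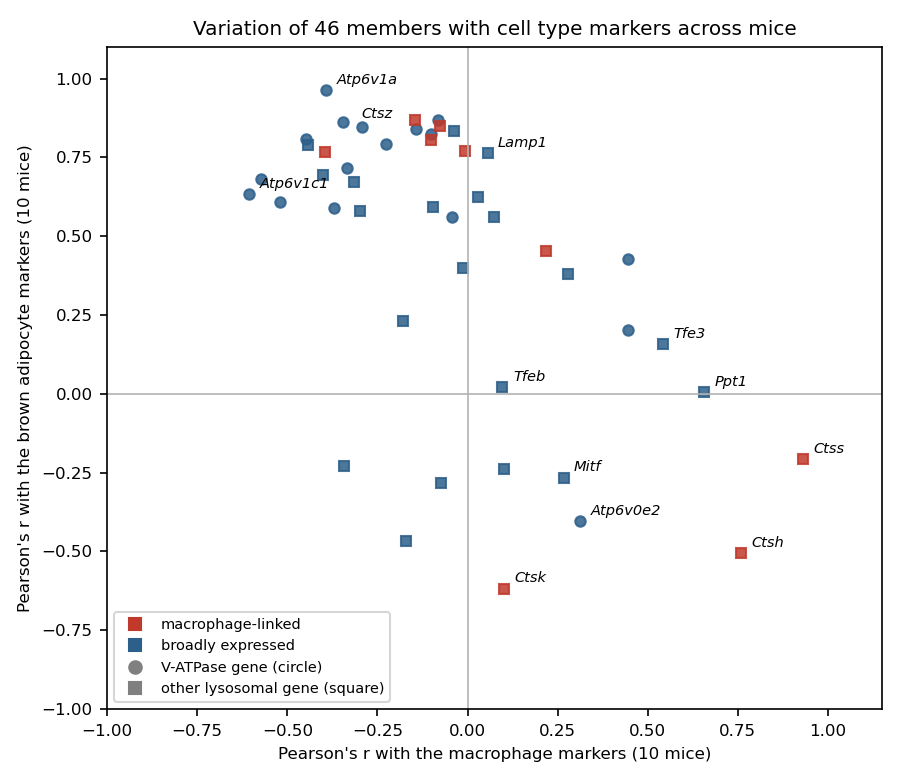
Pearson's r over 10 mice of each of 46 members with the macrophage markers (horizontal axis) and with the brown adipocyte markers (vertical axis); colour gives the class, and circles are V-ATPase genes. Ctss lies at 0.930 on the horizontal axis, Atp6v1a at 0.964 and Ctsz at 0.869 on the vertical axis, and Ctsk and Ctsh are low on the vertical axis.

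**Figure D5:**
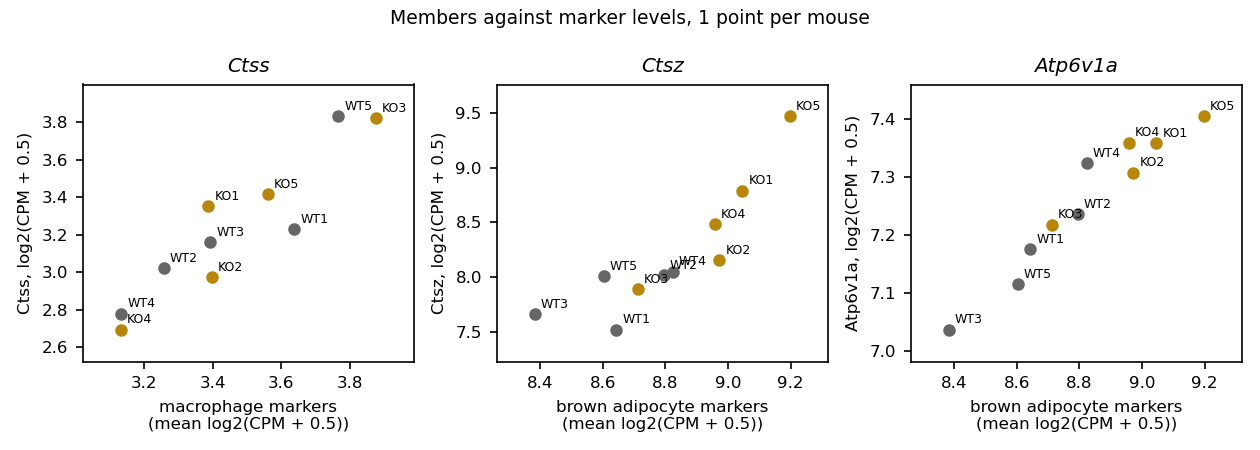
Level of Ctss against the macrophage markers, and of Ctsz and Atp6v1a against the brown adipocyte markers (both axes log2 of CPM plus 0.5; 1 point per mouse, gold for Axl KO and grey for WT). The Ctss points mix both genotypes along 1 line, while Axl KO replicate 5 is at the upper right and WT replicate 3 at the left for Ctsz and Atp6v1a.

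Further lysosomal genes that are not members, 134 in 5 lists, had a lower median. Of them 128 were tested, 0 passed the adjusted threshold, and the median log2 fold change was 0.038. At an unadjusted p under 0.05, 14 (10.9%) had a higher level in Axl KO mice, beside 4.54% of all tested genes. A lower level at that p was found for 4, beside 3.86% of all tested genes. Of 22 tested genes that control mTORC1 and TFEB on the lysosome, 5 (22.7%) were higher and 0 lower at that p, with a median log2 fold change of 0.10. Of 18 further V-ATPase genes 0 were higher and 1 was lower, with a median of 0.0027. Of 39 hydrolases 5 (12.8%) were higher and 2 lower, and of 26 membrane proteins 2 (7.69%) and 1. Of 23 genes for delivery to lysosomes 2 (8.70%) were higher and 0 lower. The median of the V-ATPase subunits and assembly factors outside the list of members was thus near 0.

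The 8 of these genes with the smallest p lay in both directions, each with an adjusted p of 0.571 (edgeR). Lamtor1, the Ragulator subunit that anchors mTORC1 signaling to lysosomes, measured 119, 102, 97.3, 106 and 126 CPM in Axl KO and 94.7, 98.0, 80.4, 96.6 and 92.4 CPM in WT mice, a log2 fold change of 0.25 (SE 0.082). A further Ragulator subunit, Lamtor4, had 0.20 (SE 0.070), and the autophagosome protein Map1lc3b 0.16 (SE 0.057). Gnptg, a subunit of the enzyme that makes the mannose-6-phosphate signal of lysosomal hydrolases, measured 18.2, 18.2, 19.1, 20.7 and 27.3 CPM in Axl KO and 16.5, 16.2, 15.5, 16.0 and 17.9 CPM in WT mice, without overlap. Scpep1, a serine carboxypeptidase, had a log2 fold change of 0.24 (SE 0.085). In the other direction, Abca2, a lysosomal lipid transporter, measured 169, 185, 175, 205 and 152 CPM in Axl KO and 237, 220, 204, 210 and 234 CPM in WT mice, a log2 fold change of −0.32 (SE 0.080), with 1 Axl KO mouse within the WT range. Galns, the sulfatase deficient in Morquio syndrome, had −0.81 (SE 0.26) at 0.753 to 2.21 CPM in Axl KO and 1.90 to 2.87 CPM in WT mice. Rogdi, a component of the V-ATPase regulator that rejoins V1 with V0, had −0.26 (SE 0.092) without overlap between the groups. Of the 128 tested genes in these lists, 1 was higher and 1 lower without overlap, near the 0.735% and 0.619% of all tested genes.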

How the data were processed

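RNA of whole iBAT from 10 mice was sequenced with a TruSeq kit. The labels name polyadenylated RNA, the study's methods rRNA depletion; the labels give 24 weeks of HFD from 6 to 8 weeks of age, and the study's text a slightly different duration and starting age. The methods name Trim Galore and hisat2 on GRCm38, whereas the submitters' processing notes list Trimmomatic 0.36, STAR 2.6.1c, GRCm38.p5 and DESeq2. The authors deposited 1 table of raw read counts per Ensembl gene and mouse, not normalized or pooled. The counting tool and strand setting are not given in the sources used here.

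Symbols came from GENCODE M21, which held 41163 of the 41249 identifiers. Groups came from the labels, and replicates are separate mice per the study's methods. Counts were normalized with TMM, genes with a mean above 1 CPM were kept, and Axl KO and WT mice were compared with edgeR 4.0.16 in R 4.3.3 (quasi-likelihood test, no covariate, Benjamini-Hochberg adjustment over all tested genes), after the procedure was tested on simulated data. DESeq2 1.42.0 was an alternative, beside other normalizations, filters, covariates, a replicate block and each mouse left out in turn. The coefficient of variation between mice of 1 genotype was 14.8% in the model. Every 2 mice differed by more than counting error (mean chi-square of 5.50 or more over genes). The SE of a log2 fold change was derived from edgeR's test, as its absolute value divided by the square root of the test's F statistic. The limit given for a count of 0 covers counting error only, whereas SDs and SEs include the variation between mice. CPM per kilobase used the union of exons. Correlations used log2(CPM + 0.5) in Python 3.11.15, with p-values adjusted over the members and over all tested genes, and promoter windows came from RefSeq.

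Named are Axl, all members by role, in full the 10 with the smallest p and 11 chosen ones, and the 8 further lysosomal genes with the smallest p. The members, classes and lists were chosen with earlier results of these data known. The cell type markers were Adgre1, Cd68, Csf1r, Mrc1, Cd163, Lyz2, C1qa, C1qb, C1qc, Fcgr1, Mertk, Trem2, Gpnmb and Itgax for macrophages, and Ucp1, Cidea, Cox8b, Elovl3, Dio2, Adipoq, Fabp4, Plin1, Prdm16 and Ppargc1a for brown adipocytes. Endothelial and erythroid markers had median log2 fold changes of −0.040 and 0.021, and 0 of 5 B and T cell markers reached the filter.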

Additional observations from a re-analysis of the deposited data

Results flagged for a closer look

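In 2 of the 40 groups of 5 mice examined (20 fully described members in both genotypes), 1 mouse lay farther from the others than the 95% limit of Dixon's test for 5 values, a gap above 0.71 of the group's range. Chance alone flags about 1 in 20 groups, which here comes to 2. For Atp6v0b, WT replicate 5 had 68.8 CPM and the nearest WT mouse 74.0 CPM, a gap of 0.783 of the range. For Ctsd, WT replicate 3 had 1144 CPM and the nearest WT mouse 1418 CPM, a gap of 0.868 of the range, and the log2 fold change of Ctsd without this mouse was 0.046.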

How the results depend on the processing

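No member was called in any of 21 alternatives. The genes tested in each alternative, whose number varied with the filter and the mice used, held 1 call, except with DESeq2, which made 9. Of the 20 tested members described in full, those other than Ctss, Tfe3 and Mitf kept their direction in these alternatives. With the muscle covariate, Tfe3 had a log2 fold change of −0.0043 and Mitf one of 0.060, and with the macrophage covariate Ctss had −0.016; leaving out single mice gave −0.13 to 0.26 for Ctss and −0.093 to 0.036 for Mitf. The count of members at an unadjusted p under 0.05 with a higher level, 10 as reported, was 6 with the muscle covariate, 4 to 21 with single mice left out (6 without WT replicate 2) and 1 without Axl KO replicates 1 and 5, where the median log2 fold change was 0.036 (0.076 to 0.15 with single mice left out). That count was 12 with the macrophage covariate, where the median log2 fold change of the members was 0.11, and 11 with library totals alone. The count with a lower level was 0 to 1. Members without overlap numbered 0 with library totals alone and 1 to 8 with single mice left out, 8 without Axl KO replicate 3. The shares of all tested genes in these alternatives are not given here, so such counts cannot be set beside the shares of the main fit. With 3 genes as macrophage-linked, that median was −0.12. Members that correlated with macrophage markers numbered 0 with Spearman's rho and 0 when adjusted over all tested genes, a choice made after seeing the data (1 as reported). Those with brown adipocyte markers, with p adjusted over the members alone, numbered 2 with Spearman's rho, 9 with library totals and 0 with the shorter list. At the same adjustment they numbered 1 with genotype means taken out and 1 to 18 with single mice left out. Adjusted over all tested genes, the number was 1. The cause was not tested in each case. Deviations of same-numbered mice had correlations of −0.355 to 0.370, which cannot show whether the numbers pair the mice. With the replicate block 9 members had a higher level at an unadjusted p under 0.05, 0 were called, and the median log2 fold change was 0.10. With 5 mice a group, differences of the size seen here were not resolved after adjustment, and Atp6v0d2 was too shallow to compare.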
